A study of Mus musculus with 6 samples.

Results

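The genes described here encode nuclear subunits of the mitochondrial respiratory chain and of ATP synthase, with complex I assembly factors and subunit isoforms. They were taken by symbol from the deposited table: all symbols that begin with Nduf, Uqcr or Atp5, or with Cox and a digit from 4 to 8, together with Sdha, Sdhb, Sdhc and Sdhd. This gave 92 of 21878 genes. Of these, 74 encode subunits of complexes I to V (36, 4, 8, 11 and 15 genes in that order). With the prefix Ndufaf, 7 encode complex I assembly factors. Another 8 encode alternative isoforms or relatives of subunits, and 3 are other symbols that the spelling takes in. Ndufa4 is named after complex I but is counted with complex IV, where its protein resides.

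Bulk mRNA was sequenced from macrophages sorted out of mouse tumours. All 6 libraries came from mice with floxed Trmt61a alleles that had received MC38, a mouse colon carcinoma line, 14 days before collection. The 3 KO libraries came from Trmt61a f/f LysmCre mice, which also carried a Cre recombinase driven from the lysozyme M locus and therefore active in myeloid cells in general and not in macrophages alone. The 3 WT libraries came from Trmt61a f/f mice without the Cre, so no group carried the Cre with intact Trmt61a. The labels do not say whether each replicate was its own mouse, so each p-value covers the spread among these libraries only, and some of that spread may be technical. The sources used here do not give the age and sex of the mice, the sorting gate or the floxed exons. The product of Trmt61a is the catalytic part of an enzyme that places m1A, a methylated adenosine, on tRNA. Its counts were 157, 138 and 148 in WT and 41, 33 and 50 in KO, so each library followed its label (log2 fold change -1.81, SE 0.197, edgeR adjusted p = 0.0426).

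Library totals lay between 18839026 and 20313597 counts, and the 92 genes took up 0.664% to 0.757% of them. KO replicate 2 stood apart on the first principal component of all tested genes (29.4, where the other libraries lay between -18 and 5.26). The 10 macrophage markers searched summed to 13954 to 15247 CPM in WT against 13156 to 15086 CPM in KO (CPM scales the counts of a gene to the library total), with Csf1r, the receptor for macrophage growth factor, at 1245 to 1578 CPM. Of the 10 markers, 6 had a log2 fold change below 0, with a median of -0.073, and none had an edgeR adjusted p under 0.05. C1qa was lower in KO at an unadjusted edgeR p under 0.05, as were 3.06% of all tested genes. C1qa and C1qb had all KO libraries below all WT libraries, as did 6.3% of all tested genes. In bulk RNA, fewer cells of a type and less RNA per cell cannot be told apart.

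The respiratory chain passes electrons from NADH (complex I) and succinate (complex II) through coenzyme Q to complex III, then through cytochrome c to complex IV, which reduces oxygen. Complexes I, III and IV pump protons across the inner mitochondrial membrane, and ATP synthase (complex V) lets them return and makes ATP. The chain is built from nuclear and mitochondrial genes, with the exception of complex II, which is wholly nuclear. In macrophages, inflammatory activation is known to shift metabolism away from respiration and interleukin 4 towards it, and complexes I and II are known sources of signalling by reactive oxygen species and succinate.

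Nuclear respiratory chain genes are classic targets of a small set of transcription factors: NRF1, the ETS-family factor GABP, YY1 and the estrogen-related receptors. Their recognition letters were searched on both strands of RefSeq promoter windows (GRCm38.p6, 250 bases before to 50 after the start), which were found for 76 of the 92 genes. The NRF1 letters (GCGC, any base, then TGCGC) were in the windows of 19 of the 76 genes (25%), against 11.5% of tested genes and 5.19% of all genes with a window. The ETS letters CCGGAAG were in 22.4%, close to the 20.5% of tested genes (9.93% of all). The YY1 letters AAGATGGCG were in 10.5% (8 genes), against 3.64% of tested genes (1.64% of all). The letters TCAAGGTCA of the estrogen-related receptors were in 2.63%, against 0.328% of tested genes (0.466% of all). That 2.63% is 2 genes, Sdhd and Atp5g3, and the match in Sdhd lies after the start. No 2 of these letter strings contain one another, and a match is a description of the letters and not a bound site. A stretch from 1 gene of each complex is given 5′ to 3′ as an example of each kind of match but YY1, with the matching letters in capitals. Each lies before the annotated start and on the minus strand, at chr16:37654454-37654573 (Ndufb4), chr9:50603850-50603909 (Sdhd), chr10:80406831-80406949 (Uqcr11), chr5:115348982-115349128 (Cox6a1) and chr2:73911327-73911446 (Atp5g3).
Ndufb4, complex I, NRF1 on the opposite strand: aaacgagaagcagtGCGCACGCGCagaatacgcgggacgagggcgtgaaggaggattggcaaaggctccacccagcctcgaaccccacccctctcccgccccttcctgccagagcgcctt
Sdhd, complex II, ETS on the opposite strand: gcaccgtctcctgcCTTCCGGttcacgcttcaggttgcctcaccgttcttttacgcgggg
Uqcr11, complex III, ETS: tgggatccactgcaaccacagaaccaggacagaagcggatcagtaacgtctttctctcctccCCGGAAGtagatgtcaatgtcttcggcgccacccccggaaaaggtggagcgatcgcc
Cox6a1, complex IV, NRF1 at 2 places, the first reading on both strands and the second on the opposite strand: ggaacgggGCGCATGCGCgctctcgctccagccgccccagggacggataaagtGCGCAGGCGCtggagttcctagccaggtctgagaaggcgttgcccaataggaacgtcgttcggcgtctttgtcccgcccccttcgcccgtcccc
Atp5g3, complex V, estrogen-related receptor on the opposite strand: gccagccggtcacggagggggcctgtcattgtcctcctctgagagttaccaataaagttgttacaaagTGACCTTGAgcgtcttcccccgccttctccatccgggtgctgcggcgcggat
The printed matches begin 191 bases before the RefSeq start of Ndufb4, 46 before that of Sdhd and 66 before that of Uqcr11. In Cox6a1 they begin 162 and 117 bases before the start, and in Atp5g3 52 bases before it. The whole Ndufb4 window held 3 NRF1 matches, of which 1 is printed. Other kinds of match in these windows were NRF1 and estrogen-related receptor in Sdhd, ETS in Cox6a1 and NRF1 in Atp5g3. By complex, the NRF1 letters were in 7 of 32 complex I genes, 2 of 3 of complex II, 1 of 5 of complex III, 1 of 9 of complex IV and 6 of 14 of complex V.

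All 74 subunit genes had reads in every library, and their levels spanned a wide range. Levels between genes are compared as CPM per kilobase of the median annotated protein-coding transcript, averaged over the 6 libraries. On this scale the median gene stood at 151 in complex IV, 129 in complex V, 98.5 in complex III, 80.5 in complex II and 53.8 in complex I. The highest was Atp5b, the catalytic beta subunit of ATP synthase, at 454 ± 27.2 CPM per kb (SD over 6 libraries). Cox4i1, which encodes subunit 4 of cytochrome c oxidase, followed at 391 ± 27.8 CPM per kb, and the SDs of the pair do not reach each other. Within complex III the range ran from Uqcrc2, a core protein, at 56.0 ± 1.26 to Uqcrh, the hinge protein, at 164 ± 14.6 CPM per kb. The 4 genes of complex II lay closest together, from Sdhc at 52.6 ± 3.05 to Sdhd at 89.97 ± 3.89 CPM per kb. Ndufa4 was the lowest of complex IV at 37.5 ± 4.39 CPM per kb. In complex I, Ndufa6 was the highest at 115 ± 9.02 and Ndufb2 the lowest at 7.63 ± 0.935 CPM per kb.

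The low per-length values of a few genes depend on long annotated transcripts. With the shortest coding transcript in place of the median one, Ndufb2 stood at 40.5, Atp5g1 at 89.1 and Sdhc at 129 CPM per kb. The complex I assembly factors, which help to build the enzyme and are not part of it, lay far lower, between 2.34 CPM per kb for Ndufaf4 and 10.7 for Ndufaf2.

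**Figure D1:**
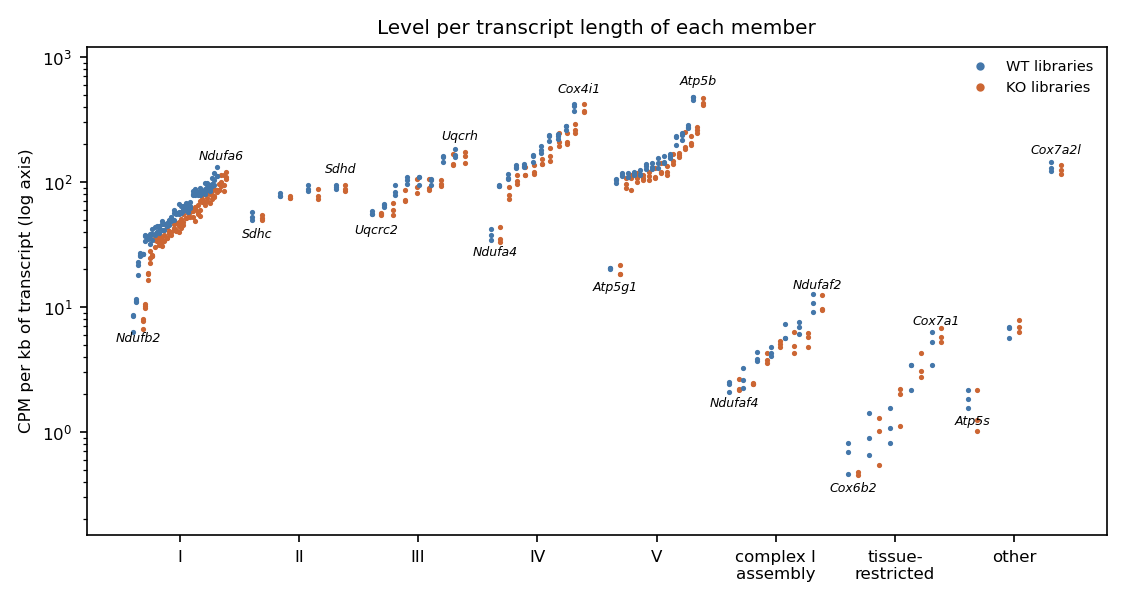
Level of each expressed gene in each library, in CPM per kb of median transcript on a log axis, ordered within each complex; blue points are WT and orange points KO libraries. Atp5b and Cox4i1 stand at 454 and 391 CPM per kb on average, and the 7 complex I assembly factors lie between 2.34 and 10.7.

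Of the 92 genes, 88 passed the filter on low counts; Cox6b2, Cox7b2, Cox8b and Cox8c did not. No gene of the 88 passed the test of KO against WT (smallest edgeR adjusted p = 0.703, where 0.0165% of all 12136 tested genes passed). DESeq2 and limma-voom called 0 of them as well. At an unadjusted p under 0.05, edgeR gave 4 genes with lower levels in KO, Ndufb9, Cox7b, Atp5j2 and Atp5k, and 0 with higher levels. Over all tested genes, 3.06% were lower and 3.86% higher at that threshold.

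The direction was shared across the list while the size was small. The log2 fold change lay below 0 for 80 of the 88 genes, against 50.2% of all tested genes. The median log2 fold change was -0.083, a level 5.59% lower in KO, against -0.00088 over all tested genes, and the quartiles of the 88 genes lay at -0.13 and -0.048. In 4 genes, Ndufs1, Ndufab1, Sdha and Cox7b, all 3 KO libraries lay below all 3 WT libraries, and in 0 genes all lay above. That share of 88 is close to the background, where 6.3% of all tested genes had every KO library lower and 6.11% every KO library higher. All 74 intervals (95%) of the subunit genes lay within a 1.5-fold change in either direction, the widest bounds being -28.1% and 21.0%.

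**Figure D2:**
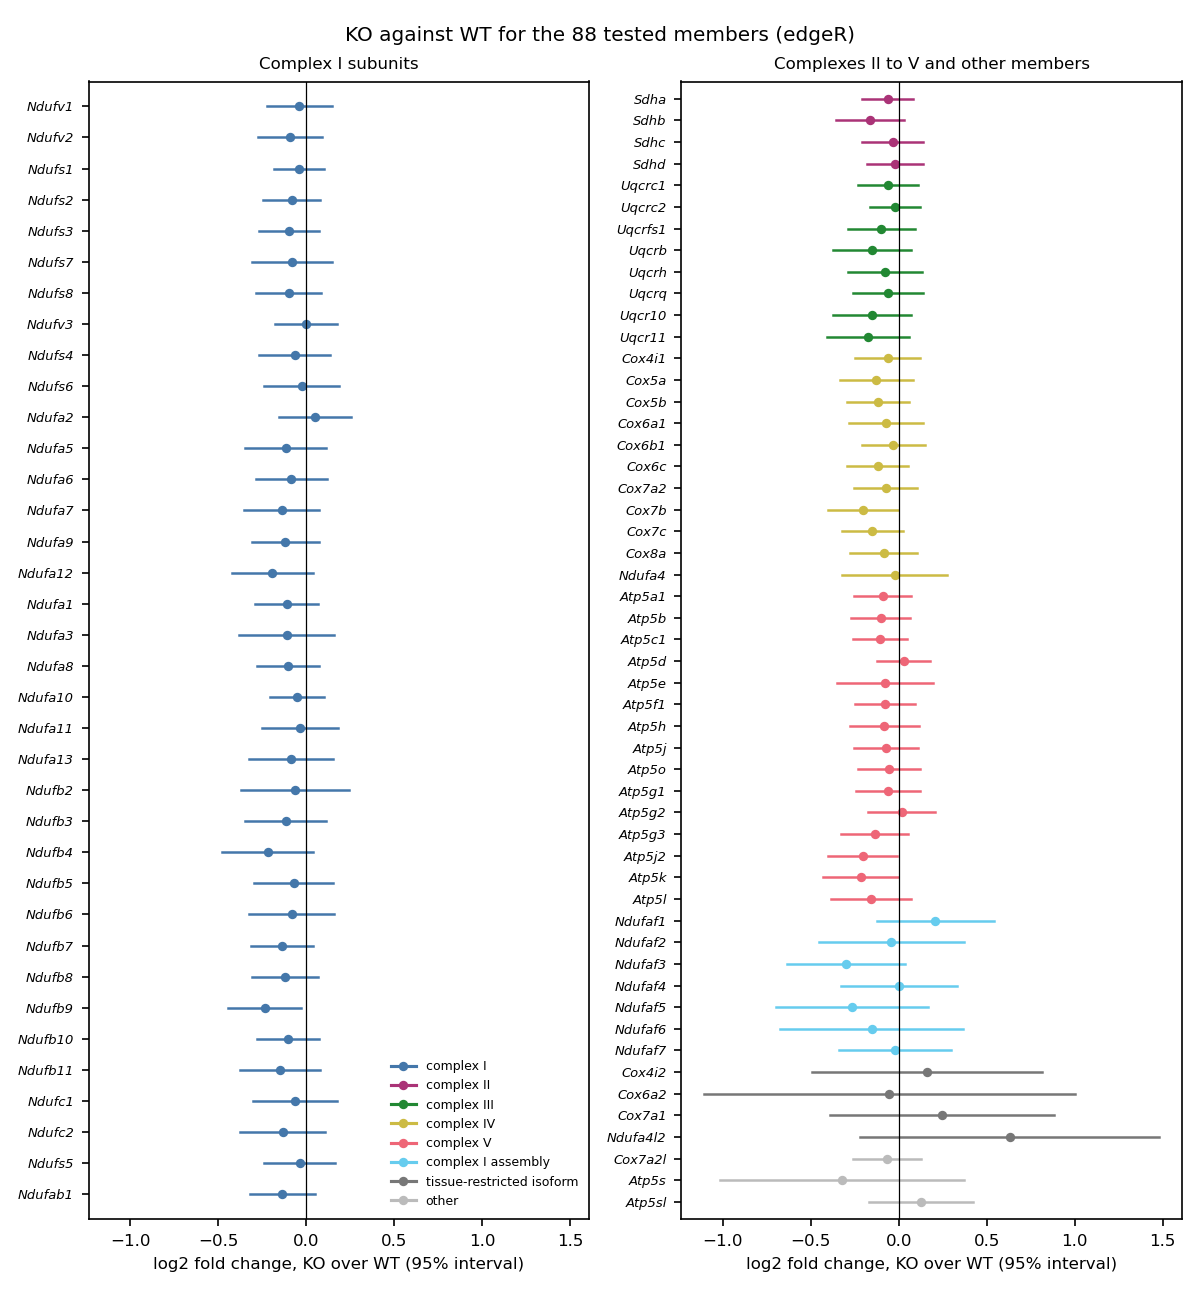
Log2 fold change of KO over WT with its 95% interval (edgeR) for the 88 tested genes, coloured by complex. The points lie mostly left of 0 at a median of -0.083, and the intervals of all but 4 genes include 0.

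Complex I, the entry point for NADH, had 35 of 36 subunit genes below 0, with a median log2 fold change of -0.095. The summed level of the 36 genes was 1809, 1782 and 1673 CPM over the WT replicates, against 1550, 1618 and 1779 CPM over the KO replicates. KO replicates 1 and 2 lay below every WT library in this sum, and KO replicate 3 lay between WT replicates 2 and 3. The 7 core genes, among them those that hold the flavin and iron-sulfur centres, had a median of -0.083, with 7 of 7 below 0. The core genes with the smallest p were Ndufs3, Ndufs8 and Ndufv2, at -0.098 (SE 0.0767), -0.099 (SE 0.0834) and -0.092 (SE 0.0808).

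Ndufs1, the largest subunit of complex I, was the steadiest core gene. It stood at 69.6, 69.4 and 69.2 CPM in WT against 66.5, 68.6 and 67.3 CPM in KO. The groups did not overlap, yet the gap was narrow and the log2 fold change was -0.041 (95% interval -0.18 to 0.10). Ndufs1 overlaps 3 genes on the opposite strand.

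The accessory subunits, which surround the core, were divided by arm. In the matrix arm, 8 of 9 genes lay below 0 (median -0.084), led by Ndufa12, Ndufa7 and Ndufa9 at -0.19 (SE 0.103), -0.14 (SE 0.0959) and -0.12 (SE 0.0859). Ndufa2 was the 1 complex I subunit above 0, at 0.050 (95% interval -0.15 to 0.26). In the membrane arm, 20 of 20 genes lay below 0, with a median of -0.11. Each gene was assigned to 1 arm only, and Ndufab1 was assigned to the membrane arm.

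Ndufb9, a membrane arm subunit (chromosome 15, 58933756 to 58939488, plus strand, GRCm38), had the smallest p of the 88 genes. Its levels were 61.5, 60.9 and 55.2 CPM in WT against 48.6, 45.7 and 56.5 CPM in KO. KO replicates 1 and 2 lay below all WT libraries, and KO replicate 3 lay above WT replicate 3, so the groups overlapped. The log2 fold change was -0.24 (SE 0.0926, 95% interval -0.44 to -0.03, edgeR adjusted p = 0.703). The Ndufb9 locus overlaps 1 other annotated gene on the same strand. Ndufb4, which has a near-identical pseudogene, was at 20.9, 22.1 and 17.5 CPM in WT against 16.0, 18 and 17.9 CPM in KO (log2 fold change -0.22, SE 0.115). Ndufab1, the mitochondrial acyl carrier protein, was at 27.4, 28.1 and 26.7 CPM in WT against 23.9, 24.9 and 26.0 CPM in KO. Its groups did not overlap, and its log2 fold change was -0.13 (SE 0.0836); it has 2 near-identical pseudogenes.

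The 7 complex I assembly factors with the prefix Ndufaf had a median log2 fold change of -0.042, with 6 of 7 below 0. Ndufaf3 was at 11.3, 10.3 and 9.12 CPM in WT against 7.12, 8.61 and 9.22 CPM in KO (log2 fold change -0.30, SE 0.15). Ndufaf1 ran the other way, at 6.94, 5.90 and 6.23 CPM in WT against 7.74, 6.93 and 7.34 CPM in KO (log2 fold change 0.21, SE 0.149). Both sets of libraries overlapped, and neither gene passed (edgeR adjusted p = 0.725 and 0.791).

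Complex II, succinate dehydrogenase, links the citric acid cycle to the chain, and its 4 genes had the median closest to 0 of the 5 complexes at -0.049, all 4 below 0. Sdha encodes the flavoprotein that oxidises succinate (chromosome 13, 74322254 to 74350280, minus strand). It was at 235, 222.4 and 224 CPM in WT against 217, 214 and 221.9 CPM in KO, groups that did not overlap but came close at WT replicate 2 and KO replicate 3. The log2 fold change of Sdha was -0.063 (95% interval -0.21 to 0.08). Sdhb, the iron-sulfur subunit, was at 108, 96.3 and 101 CPM in WT against 83.0, 88.6 and 101 CPM in KO. KO replicates 1 and 2 lay below all WT libraries and KO replicate 3 among them (log2 fold change -0.17, SE 0.0867, edgeR adjusted p = 0.725). The membrane anchors Sdhc and Sdhd had log2 fold changes of -0.035 (SE 0.0775) and -0.023 (SE 0.0710), and their libraries overlapped.

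Complex III, which passes electrons from coenzyme Q to cytochrome c, had 8 of 8 genes below 0 and a median of -0.089. The symbol rule did not take in its subunit gene Cyc1, which was at -0.028 (SE 0.0789). The genes with the smallest p were the small subunits Uqcr11, Uqcrb and Uqcr10, with log2 fold changes of -0.18 (SE 0.104), -0.15 (SE 0.0989) and -0.15 (SE 0.0992). Uqcr11 was at 37.2, 41.9 and 35.2 CPM in WT against 31.9, 31.1 and 38.1 CPM in KO, with KO replicate 3 inside the WT range. Uqcrc2 had one of the smallest differences, with a mean of 107 ± 2.82 CPM in WT against 105 ± 2.03 CPM in KO (SD of 3 libraries). Uqcr11 has 1 near-identical pseudogene and Uqcrb has 3.

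Complex IV, cytochrome c oxidase, had 11 of 11 nuclear subunit genes below 0 and a median of -0.086. Cox7b, a small subunit at the membrane (chromosome X, 106015700 to 106022450, plus strand), had an unadjusted edgeR p under 0.05 and groups that did not overlap. Of all tested genes, 3.06% were lower in KO at that threshold and 6.3% had every KO library lower. The share of all tested genes that met both was not counted. Cox7b was at 95, 92.1 and 93.7 CPM in WT against 72.8, 78.7 and 92.0 CPM in KO. The WT libraries lay within 3 CPM of one another, and KO replicate 3 lay just under the lowest of them. The log2 fold change was -0.20 (SE 0.0892, 95% interval -0.40 to -0.01, edgeR adjusted p = 0.713). Cox7c was at 70.6, 74.4 and 70.2 CPM in WT against 61.3, 61.9 and 70.7 CPM in KO, with KO replicate 3 inside the WT range (log2 fold change -0.15, SE 0.0780). Cox6c had a log2 fold change of -0.12 (SE 0.0778), and Cox4i1, the most abundant subunit per length, of -0.064 (SE 0.0838). Ndufa4 was at 17.4 ± 1.70 CPM in WT against 17.1 ± 2.69 CPM in KO.

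In complex V, ATP synthase, 13 of 15 genes lay below 0, with a median of -0.082. The exceptions were Atp5d at 0.027 (SE 0.0676), the delta subunit of the central stalk, and Atp5g2 at 0.017 (SE 0.0854). The 5 genes of the F1 head and central stalk had a median of -0.092, the 4 of the peripheral stalk -0.075 and the 3 of the c ring -0.062. Atp5b was at 921, 911 and 872 CPM in WT against 792, 823 and 902 CPM in KO, with KO replicate 3 again inside the WT range (log2 fold change -0.10, SE 0.0758).

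The small membrane subunits f, e and g (Atp5j2, Atp5k and Atp5l) sit where ATP synthase forms dimers. These 3 genes had the lowest median of these groups at -0.21. The symbol rule did not take in the small subunits Usmg5 and 2010107E04Rik, which were at -0.059 (SE 0.0749) and -0.10 (SE 0.104). Atp5j2 (chromosome 5, 145183698 to 145192062, minus strand) was at 104, 99.9 and 95.1 CPM in WT against 80.3, 81.2 and 97.5 CPM in KO. Atp5k (chromosome 5, 108433244 to 108434448, minus strand) was at 49.95, 45.9 and 41.5 CPM in WT against 38.5, 36.5 and 43.0 CPM in KO. In both genes KO replicates 1 and 2 lay below every WT library and KO replicate 3 lay above WT replicate 3. The log2 fold changes were -0.21 (SE 0.0882) for Atp5j2 and -0.22 (SE 0.0952) for Atp5k, and neither passed (edgeR adjusted p = 0.713 for each). Atp5l was at 61.1, 64.0 and 61.3 CPM in WT against 46.6, 58.1 and 62.2 CPM in KO, where KO replicate 1 was lowest (log2 fold change -0.16, SE 0.102). Atp5l has 4 near-identical pseudogenes. The subunits of this group were not compared with the others by a test.

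**Figure D3:**
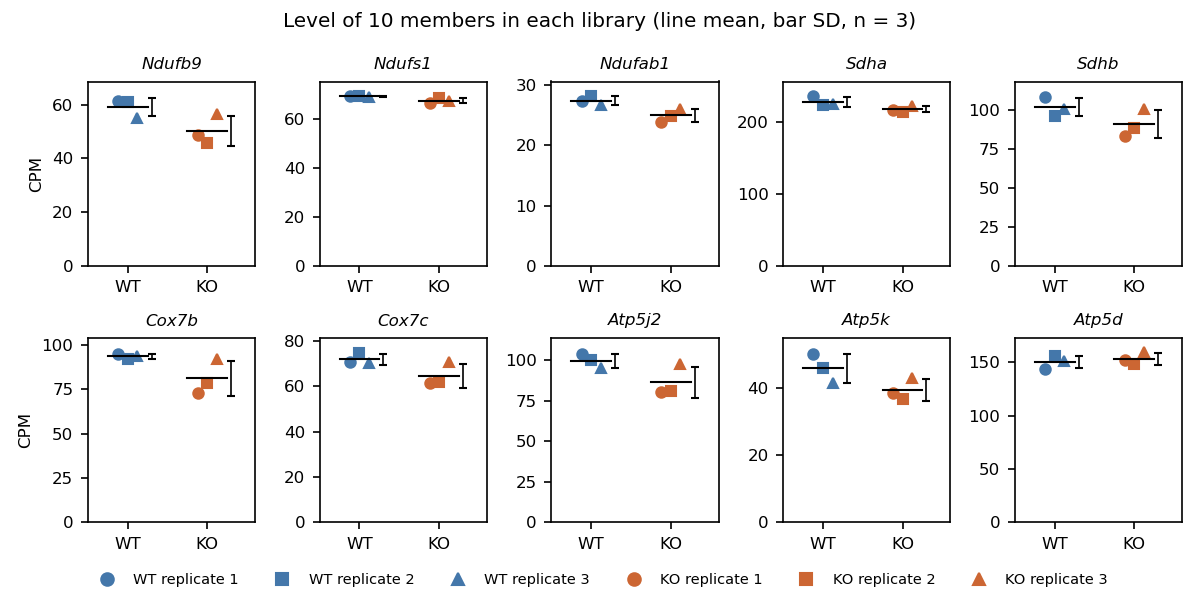
Levels in CPM of 10 genes in each library; axes start at 0, lines are means and bars SDs of 3 libraries. In each panel but that of Ndufs1, KO replicate 3 (orange triangle) is the highest KO library.

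Several subunits have an isoform used in other tissues, and the macrophages used the common form nearly alone. Measured per length, Cox4i1 made up 99.3% of the subunit 4 signal in WT and 99.1% in KO. Cox6a1 made up 99.6% in both groups, and Cox6b1 99.8% in WT and 99.9% in KO. The partners of Cox7b and Cox8a, which are Cox7b2, Cox8b and Cox8c, had a count of 0 in all 6 libraries. Cox7a1, the heart and muscle form of subunit 7a, reached 4.34% ± 1.21 of the subunit 7a signal in WT and 5.40% ± 0.767 in KO (SD, n = 3), with Cox7a2 as the rest. The 4 skeletal muscle markers summed to under 2 CPM in every library.

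Ndufa4l2, a hypoxia-induced relative of Ndufa4, showed the highest log2 fold change of the 88 genes, from low counts. It was at 0.765, 1.46 and 0.997 CPM in WT against 1.04, 1.89 and 2.07 CPM in KO, with overlap, and did not pass (log2 fold change 0.63, 95% interval -0.22 to 1.48, edgeR adjusted p = 0.755). The other tested isoforms had log2 fold changes of 0.16 (Cox4i2, SE 0.292), 0.25 (Cox7a1, SE 0.285) and -0.054 (Cox6a2, SE 0.472). With these errors their direction could not be told. Their levels were 0.367 to 3.15 CPM.

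The c subunit of ATP synthase is encoded by 3 genes whose mature proteins are the same. Per length, Atp5g3 made up 58.0% ± 1.89 of the signal in WT and 55.5% ± 0.116 in KO, Atp5g2 37.0% ± 1.89 and 39.5% ± 0.202, and Atp5g1 5.02% ± 0.178 and 5.06% ± 0.0861 (SD, n = 3). The share of Atp5g1 rests on its long annotated transcripts; of the raw counts it held 17.5% in WT and 17.7% in KO. The Atp5g2 share was 34.9%, 38.3% and 37.9% over the WT replicates and 39.3%, 39.7% and 39.4% over the KO replicates, without overlap. WT replicates 2 and 3 lay close to the KO libraries, and WT replicate 1 lay furthest from them. The mirror image for Atp5g3 is not a separate result, because the shares are parts of one whole and that of Atp5g1 hardly changed. Several isoform families were examined, no share was compared by a test, and how often shares separate in this way was not counted. Atp5g1 and Atp5g2 have near-identical pseudogenes, and the sources used here do not say how the counting treated reads that match both.

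Of the remaining symbols, Cox7a2l encodes a factor that joins complexes III and IV into supercomplexes. It was at 136, 158 and 142 CPM in WT against 127, 138 and 151 CPM in KO (log2 fold change -0.067, SE 0.0871). Atp5s and Atp5sl, which are named after ATP synthase, had log2 fold changes of -0.32 (SE 0.312) and 0.13 (SE 0.132). Neither was counted with complex V or with the complex I assembly factors. None of the 3 passed.

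In all 5 complexes KO replicates 1 and 2 were the lowest libraries and KO replicate 3 was not, so the libraries did not divide by genotype. In complex II, WT replicates 2 and 3 were close together (0.0069 and 0.015 on the centred log2 scale), while WT replicate 3 was the lower of the pair in the other complexes. The mean log2 level over the genes, centred over the 6 libraries, was 0.081, 0.074 and -0.035 in WT and -0.12, -0.077 and 0.080 in KO. KO replicate 1 was the lowest of the 6 libraries for 53 of the 88 genes and KO replicate 2 for 21, while KO replicate 3 was the lowest for 0 and the highest for 20. KO replicate 1 lay below all WT libraries in 71 of the 88 genes, against 31.1% of all tested genes, and KO replicate 2 in 56, against 30.6%. KO replicate 3 did so in 7, against 25.8%, and lay above all WT libraries in 21, against 24.8%. The median gene differed by -0.23 on the log2 scale between KO replicates 1 and 3, and by -0.10 between WT and KO replicates 3, with KO the higher. Both gaps are larger than the median fold change between the groups.

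**Figure D4:**
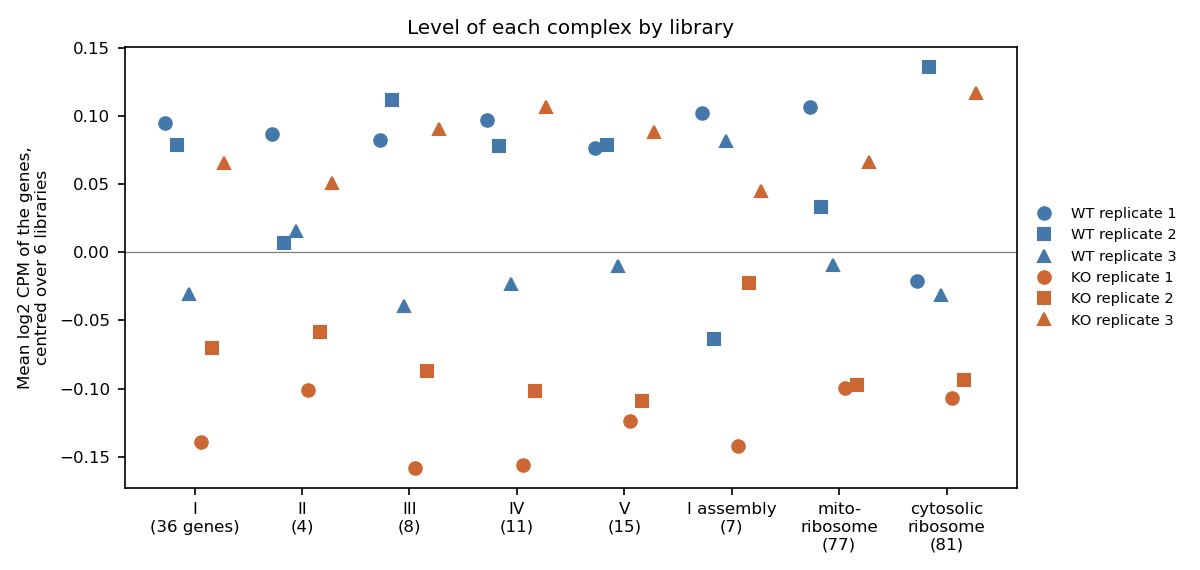
Mean log2 CPM of the genes of each complex, of the complex I assembly factors and of the ribosomal protein genes in each library, centred over the 6 libraries. KO replicates 1 and 2 are the lowest libraries in each of the 5 complexes, and KO replicate 3 lies above WT replicate 3 in each.

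Leaving out 1 library moved the size of the median and not its sign. Without KO replicate 3 the median log2 fold change over the genes was -0.15, with 57 genes whose KO libraries all lay below WT (15.3% of all tested genes) and 21 lower in KO at an unadjusted p under 0.05 (4.96% of all). Without WT replicate 3 it was -0.12, with 24 such non-overlapping genes (10.4% of all) and 3 lower at that threshold (2.01%). Without KO replicate 1 it shrank to -0.035, with 5 non-overlapping genes (9.74% of all) and 1 lower at that threshold (2.06%). Without KO replicate 2 it was -0.064, with 6 (12%) and 0 (3.45%). Without WT replicate 1 it was -0.070, with 3 (8.68%) and 0 (1.56%). Without WT replicate 2 it was -0.065, with 8 (12.1%) and 1 (3.36%). None of the 88 genes passed with any library left out (smallest edgeR adjusted p = 0.317, without KO replicate 3).

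**Figure D5:**
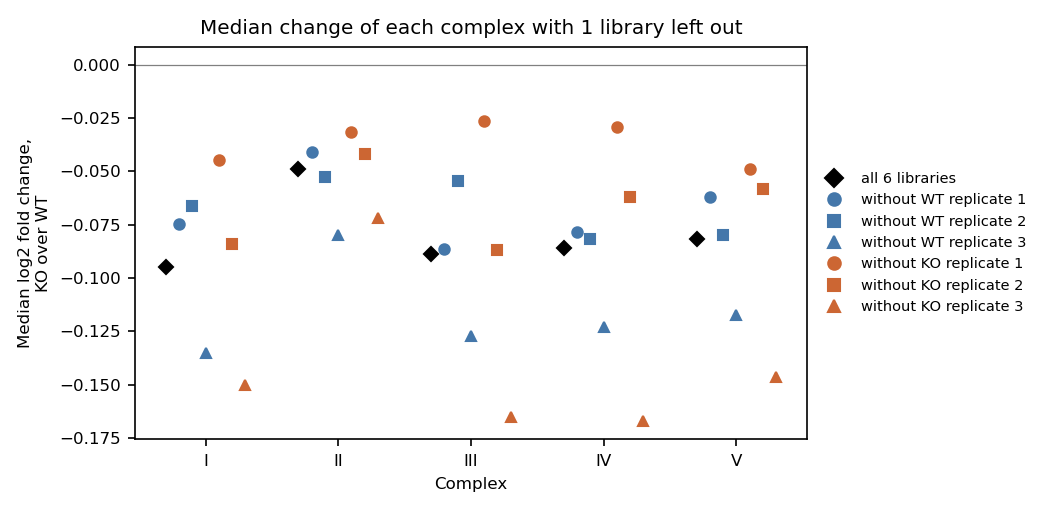
Median log2 fold change of KO over WT for the genes of each complex, with all 6 libraries (black) and with each library left out. All medians lie below 0, from about -0.17 without KO replicate 3 in complex IV to -0.026 without KO replicate 1 in complex III.

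Other genes of the pathway were examined from lists. Among 10 carriers and subunits outside the symbol rule, 8 lay below 0 with a median of -0.046. Etfa, which carries electrons from fatty acid oxidation, had a log2 fold change of -0.095 (SE 0.0674), and Gpd2, which brings in electrons from glycerol 3-phosphate, of -0.11 (SE 0.0778). Assembly factors of all complexes outside the rule were split, with 24 of 42 below 0 and a median of -0.013. Coa5, needed for complex IV assembly, was at -0.19 (SE 0.0865) and Tmem186, a complex I assembly factor, at 0.37 (SE 0.181). The 13 genes of coenzyme Q synthesis had 6 below 0 and a median of 0.022, with Coq2 at -0.20 (SE 0.10) and Pdss1 at -0.36 (SE 0.183). The 11 tested regulators of mitochondrial genes had 6 below 0 and a median of -0.0096, with Polrmt, the mitochondrial RNA polymerase, at 0.19 (SE 0.0963) and Gabpb1, a GABP subunit, at -0.17 (SE 0.11). None of the genes on these 4 lists passed with edgeR, and 0 had an unadjusted p under 0.05. Mitochondrially encoded subunits were not analysed here.

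Ribosomal protein genes followed a similar library order. The 77 mitochondrial ribosomal protein genes had 60 below 0 and a median of -0.090, and the 81 tested cytosolic ones 73 below 0 and a median of -0.049. The centred mean of the mitochondrial ribosomal genes was 0.11, 0.034 and -0.0096 in WT and -0.10, -0.097 and 0.066 in KO, which ranks the 6 libraries as the respiratory chain genes do. That of the cytosolic genes was -0.021, 0.14 and -0.031 in WT and -0.11, -0.094 and 0.12 in KO, with KO replicate 3 high as in the respiratory chain. No difference between these lists and the respiratory chain was tested.

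Markers of other cells also differed between libraries, and none of the lists had a gene that passed with edgeR. The 11 neutrophil markers summed to 85.4 to 119.6 CPM in WT against 132 to 182 CPM in KO. Of the 7 that were tested, 6 lay above 0, with a median log2 fold change of 0.69, and 4 were higher in KO at an unadjusted p under 0.05 (Ltf, Mmp8, Mmp9 and S100a8; 3.86% of all tested genes). Ltf and Mmp8 had all KO libraries above all WT libraries (6.11% of all tested genes). Mmp9, also made by macrophages, was 30.7 to 47.7 CPM in WT and 46.8 to 125 in KO, and Ltf reached no more than 1.23 CPM. Ly6g and Camp were at 0 to 0.148 CPM.

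The 11 T and NK cell markers summed to 127 to 164 CPM in WT against 165 to 225 CPM in KO. Of the 10 that were tested, 9 lay above 0, with a median log2 fold change of 0.38. At an unadjusted edgeR p under 0.05, 3 were higher in KO (Il7r, Cd2 and Cd28), as were 3.86% of all tested genes. Il7r made up most of the sum, at 113 to 146 CPM in WT and 149.5 to 178 CPM in KO, without overlap. It was the 1 gene of the 10 with all KO libraries above all WT libraries (6.11% of all tested genes). Cd3e was at 0.519 to 2.89 CPM, and KO replicate 2 was the highest library for Cd2, Cd28 and Cd3e.

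The 5 fibroblast markers summed to 198 to 317 CPM over the 6 libraries, and 4 of 5 had a log2 fold change below 0. Their centred mean was -0.10, 0.30 and -0.070 in WT and -0.21, -0.22 and 0.30 in KO. On this scale KO replicates 1 and 2 were the lowest libraries and KO replicate 3 was high, as for the respiratory chain genes. WT replicate 1 was not, at -0.10 here against 0.081 for the respiratory chain genes. In summed CPM, KO replicate 2 at 231 lay above WT replicates 1 and 3 at 200 and 222. The centred mean of the macrophage markers was 0.10, 0.015 and -0.039 in WT and 0.023, 0.029 and -0.13 in KO, lowest in KO replicate 3. Of the 5 tumour epithelium markers Cdh1 was at 76.7 to 141 CPM and the other 4 were at 0.415 CPM or lower in every library. The part of these cells in the respiratory chain values was not tested.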

How the data were processed

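The authors deposited raw read counts per gene, whole numbers, for 6 libraries made with a stranded mRNA kit, per the labels' protocols. The submitters' processing notes name Trimmomatic, HISAT2, Cufflinks, HTSeq and mm10. Annotation, strandedness of counting and handling of reads with several matches are not given in the sources used here, which makes values of overlapping genes and of genes with pseudogene copies uncertain: 15 of the 92 genes have a pseudogene of at least 97% identity over at least 100 bases, and 32 overlap a gene on the other strand (GENCODE M21, GRCm38).

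The table was fitted as a whole with edgeR 4.0.16 in R 4.3.3: filterByExpr (minimum count 10, total 15; 12136 genes and 99.962% of reads kept), TMM scaling, and a robust quasi-likelihood model in which genotype was the single term. A gene was called where its Benjamini-Hochberg adjusted p lay under 0.05. Intervals are 95% and use the fit's degrees of freedom. CPM uses TMM-scaled totals, and scores are mean log2 CPM with a prior count of 2. The script was tested on simulated data. The fit was repeated with 3 other scalings (RLE, upper quartile, totals), 2 other filters, DESeq2 1.42.0, limma-voom 3.58.1 (also quality-weighted), unrobust shrinkage, a replicate block, and without each library.

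The members and lists were chosen with earlier results of these data known. Named are, per group, up to 3 genes with the smallest p, the highest and lowest per length in each complex, all of complex II, isoforms, and up to 2 genes per other list. Ndufs1, Ndufab1, Ndufa2, Atp5d and Atp5l were named after their values were seen.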

Additional observations from a re-analysis of the deposited data

How the results depend on the processing

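The median log2 fold change of the 88 genes and of each complex stayed below 0 in every alternative run, and 0 of these genes passed in any of them. Over all genes, where edgeR called 2, there was 1 call with RLE factors, upper-quartile factors, library totals alone, no filter, limma-voom or the replicate block, 0 with at least 1 CPM in 3 libraries, 27 with DESeq2, 4 with quality weights, and 0 to 5 with 1 library left out. The 4 genes with all KO libraries below WT became 2 with upper-quartile factors, with no filter and with at least 1 CPM in 3 libraries. They became 6 with library totals alone, and 3 to 57 with 1 library left out. Over all tested genes the share was 5.74%, 5% and 5.58% in that order, and 5.4% with library totals alone. With 1 library left out it was 8.68% to 15.3%. The 4 genes lower in KO at an unadjusted p under 0.05 became 1 with upper-quartile factors, at least 1 CPM in 3 libraries or DESeq2. They became 0 with the replicate block, and 0 to 21 with 1 library left out. The share of all tested genes was 2.84%, 2.84% and 2.88% in that order, and 2.25% with the replicate block. With 1 library left out that share was 1.56% to 4.96%. Trmt61a lost its call at -1.81 with at least 1 CPM in 3 libraries (edgeR adjusted p = 0.0571), at -1.82 with limma-voom (adjusted p = 0.0522), at -1.82 with the replicate block (edgeR adjusted p = 0.103), and without any 1 library but KO replicate 2. Over those 6 fits it lay between -1.94 and -1.69. The replicate numbers did not pair the libraries: deviations of same-numbered libraries correlated at -0.057, -0.094 and -0.11.

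Of 45 named genes, 36 moved by over 1.5 times or reversed without 1 library. With quality weights, Atp5g2 was at -0.00054, Cox6a2 at 0.18, Ndufa4 at 0.0062 and Ndufb2 at 0.049. Without 1 library, the sign reversed for 10 genes, whose log2 fold changes ranged from -0.053 to 0.080 for Atp5g2, -0.056 to 0.29 for Cox4i2, -0.34 to 0.30 for Cox6a2, -0.099 to 0.026 for Cox6b1, -0.13 to 0.0064 for Cox7a2l, -0.16 to 0.057 for Ndufa4, -0.13 to 0.00061 for Ndufa6, -0.19 to 0.022 for Ndufb2, -0.085 to 0.024 for Sdhc and -0.069 to 0.0072 for Sdhd. The cause was not tested. The median SE over the 88 genes, 0.090 on the log2 scale, limits what 3 libraries a group can show.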
